A study of Homo sapiens with 9 samples.

Results

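Interferon-stimulated genes were followed in MDA-MB-231 cells after 3 herbal treatments. The set is a list of 43 symbols of interferon-induced effectors, nucleic acid sensors, factors of the STAT and IRF families, and enzymes of ubiquitin, ISG15 and ADP-ribose transfer, matched by Ensembl identifier to the 24344 genes of the deposited table. All 43 were found, and all 43 were among the 14195 genes that passed the filter on low counts. MDA-MB-231 is an established human breast adenocarcinoma line. Cells were treated for 48 h with 2.0 mg/ml of Compound Kushen Injection (CKI), which combines the herbs Kushen and Baituling, or with an injection of Kushen alone or of Baituling alone, whose amounts the labels give only as being at the ratio of CKI. RNA sequencing of total RNA gave 3 libraries per treatment, which the labels call biological replicates. Untreated cells were not analysed here, so each difference is between treatments and none is a change from rest.

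Interferons are secreted proteins that bind receptors on the cell surface and activate the kinases JAK1 and TYK2. These phosphorylate STAT2, which joins IRF9 in a complex that enters the nucleus and binds a short DNA element, the interferon-stimulated response element (ISRE), in the promoters of antiviral genes. Pairs of STAT proteins bind another element, the gamma-activated site (GAS), and several interferon-stimulated genes are also switched on without interferon, by IRF1, IRF3 or IRF7. Carcinoma cell lines often express a part of this set without added interferon.

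The total count per library was 20144628 to 23782071. Expression is given as CPM, counts brought to a common library size with the trimmed mean of M values (TMM), and differences as log2 fold changes with their standard error (SE) from edgeR's quasi-likelihood test over all 9 libraries, with p-values adjusted by the Benjamini-Hochberg method over 14195 genes. Genes with an adjusted p under 0.05 that were also past 1 or -1 on the log2 scale are referred to as called. Scaling by library totals alone shifted the median difference over all genes from 0.03 to 0.32 in CKI against Baituling, from 0.02 to 0.23 in Kushen against Baituling and from 0.01 to 0.08 in CKI against Kushen. Small differences depend on this choice. The TMM factors were 1.08 to 1.10 in the CKI, 1.02 to 1.05 in the Kushen and 0.877 to 0.899 in the Baituling libraries. VIM, CD44, KRT8, KRT18, KRT19 and EGFR, listed as markers present in MDA-MB-231, were all at about 126 CPM or more, but they differed between treatments. VIM (-2.56 in CKI and -1.83 in Kushen on the log2 scale), KRT8 (-1.28 and -1.07) and KRT18 (-1.31 and -1.05) were called lower than in Baituling in both, KRT19 in CKI (-1.22 and -0.77), CD44 was lower without a call (-0.55 and -0.49) and EGFR higher (0.79 and 0.78). Of 4 markers listed as low or absent, ESR1 and PGR were at 0.177 CPM or less, CDH1 at 0.443 to 2.82 CPM, called lower than in Baituling in both comparisons, and EPCAM at 6.93 to 13.8 CPM, highest in Baituling. Of 5 leukocyte markers, CD3E had 0 to 4 counts in the CKI, 0 to 2 in the Kushen and 0 in the Baituling libraries, and ITGAM 2 to 7, 0 to 3 and 0. PTPRC was at 0.386 CPM or less and LYZ at 0.718 CPM or less. The fifth, CD14, made up most of their summed level, which ranged over 7.96 to 9.03 CPM after CKI, 5.11 to 7.18 CPM after Kushen and 10.05 to 11.8 CPM after Baituling. The part of these marker shifts in the results was not tested.

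The promoters show which of the elements these genes carry. RefSeq promoter windows on GRCh38.p14, from 250 bases before to 50 after the start site, were at hand for 36 of the 43 genes, all but IFIT2, IFITM2, OAS2, OASL, MX2, IRF7 and USP18. The core of the ISRE, GAAANNGAAA on either strand, was found in 24 of the 36 (66.7%) against 4.38% of 27305 genes with such a window. The core of the GAS, TTCNNNGAA, which reads the same on both strands and can share its last letters with an ISRE core, was found in 10 of the 36 (27.8%) against 9.38%. Both were in the windows of 6 genes and neither in those of 8. With only the bases before the start site, the ISRE core was in 22 of the 36 (61.1%, against 3.71% of all genes) and the GAS core in 10. The stretches below are 60 bases each, 5′ to 3′ in the direction of the gene, with ISRE cores in capitals. They are shown because the first 4 belong to genes that were lower after CKI and Kushen than after Baituling, IFIT1 differed little, and the last 3 belong to genes that were higher.
OAS3 (chr12:112938306-112938365, plus strand): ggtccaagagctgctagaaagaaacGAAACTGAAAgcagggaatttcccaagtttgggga
IFIT3 (chr10:89332410-89332469, plus strand): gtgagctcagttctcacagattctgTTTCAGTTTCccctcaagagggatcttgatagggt
IFITM3 (chr11:320861-320920, minus strand): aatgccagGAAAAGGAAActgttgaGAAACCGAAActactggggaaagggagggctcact
ISG15 (chr1:1013365-1013424, plus strand): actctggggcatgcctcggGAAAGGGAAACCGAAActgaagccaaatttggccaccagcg
IFIT1 (chr10:89392495-89392554, plus strand): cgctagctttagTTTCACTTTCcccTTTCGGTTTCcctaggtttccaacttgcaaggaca
IFI6 (chr1:27672273-27672332, minus strand): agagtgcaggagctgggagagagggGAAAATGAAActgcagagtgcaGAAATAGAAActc
SAMD9 (chr7:93118081-93118140, minus strand): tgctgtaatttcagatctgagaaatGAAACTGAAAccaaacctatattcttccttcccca
HERC5 (chr4:88457020-88457079, plus strand): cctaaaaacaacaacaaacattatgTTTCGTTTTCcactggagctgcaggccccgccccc
The core therefore stands in promoters of genes that differed from Baituling in either direction. Of the 24 genes with an ISRE core, 14 were lower and 5 higher after CKI than after Baituling at an adjusted p under 0.05, and of the 12 without it 7 were lower and 3 higher. Over all genes tested, 37.0% were lower and 39.1% higher. With Kushen in place of CKI the counts were 15 lower and 4 higher with the core, and 8 lower and 2 higher without it. The shares over all genes were then 36.1% and 35.6%. Whether the core has a part in these differences was not tested. A match of letters is a description of the window and does not show binding.

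With TMM scaling, most interferon-stimulated genes were lower after CKI and after Kushen than after Baituling. For CKI this depended on the scaling. By library totals 19 of the 43 were lower and 15 higher at an adjusted p under 0.05, and for Kushen 24 and 11. With TMM scaling, all genes called lower were among the 28 listed as effectors. That list is the largest of the roles and holds the OAS genes, whose enzymes respond to double-stranded RNA, so the split by role depends on the grouping. Summed over the 43 genes, expression was 1713 to 1753 CPM in the CKI libraries, 1720 to 1753 CPM in the Kushen libraries and 2468 to 2544 CPM in the Baituling libraries. Fewer expressing cells and less RNA per cell cannot be told apart in such bulk samples. The CKI and Kushen sums overlapped, and both lay below every Baituling library. Abundant genes weigh most in such a sum. IFITM3 alone had means of 150 CPM in CKI, 164 CPM in Kushen and 417 CPM in Baituling.

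In CKI against Baituling, 11 of the 43 genes were called lower (7.91% of all genes tested) and 0 higher (11.2%). Without the fold threshold, 26 were lower (37.0% of all genes) and 10 higher (39.1%), and 7 did not pass. By library totals the split was 19 lower and 15 higher, with 9 called lower and 2, SAMD9 and USP18, called higher. The 3 CKI and 3 Baituling libraries did not overlap for 39 of the 43 genes (78.3% of all genes). The median log2 fold change was -0.48, beside 0.03 over all genes tested.

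Kushen against Baituling gave 16 genes called lower (6.73% of all genes) and 0 called higher (8.50%). Without the fold threshold, 28 were lower (36.1%) and 7 higher (35.6%), and by library totals 24 were lower and 11 higher. Libraries did not overlap for 36 genes (73.1%), and the median was -0.59, beside 0.02 over all genes. The comparison shares its Baituling libraries with the one before, so the 2 are not independent. Among the 28 effectors, 11 were called for CKI and 16 for Kushen, with medians over the 28 of -0.94 and -1.13. DESeq2 called 11 and 16 genes lower and 0 higher.

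CKI and Kushen differed in fewer genes. USP18 alone was called, higher in CKI (1 of 43, 1.70% of all genes called higher), and 0 genes were called lower (0.197%). Without the fold threshold, 13 genes were higher in CKI (19.6%) and 3 lower (20.2%), and by library totals 19 were higher and 2 lower. At an unadjusted p under 0.05, 15 were higher and 4 lower, and DESeq2 also called 1 higher and 0 lower. Libraries did not overlap for 22 of the 43 genes (49.5%), a share close to that of all genes. The median was 0.12, beside 0.01.

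**Figure D1:**
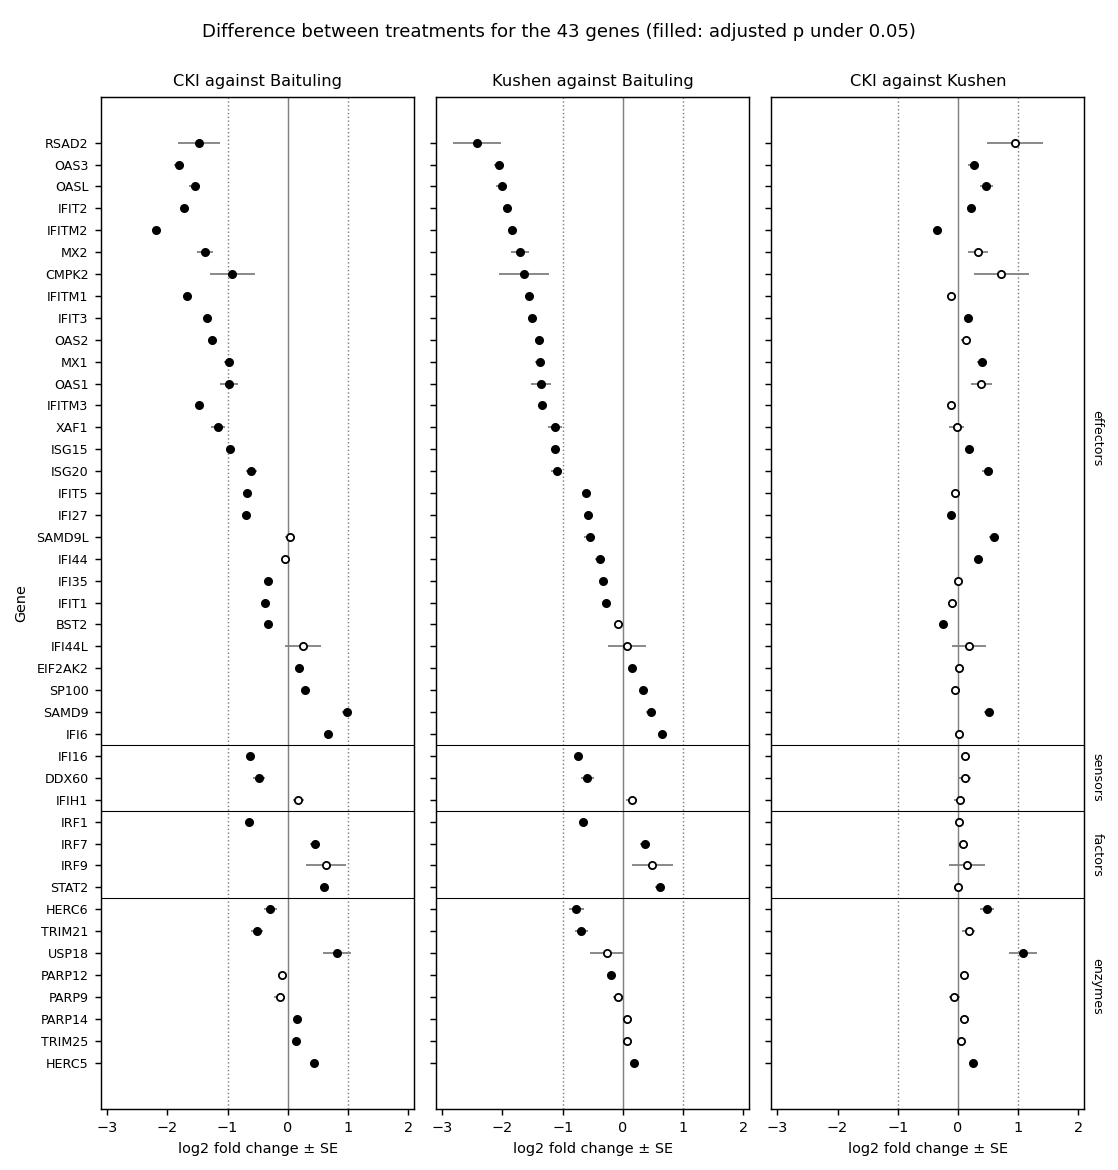
Log2 fold change ± SE of the 43 genes (rows, grouped by role and ordered by Kushen against Baituling) in the 3 comparisons (panels); filled points have an adjusted p under 0.05 and dotted lines mark log2 fold changes of -1 and 1. Effectors at the top lie left of -1 in both comparisons with Baituling, while in CKI against Kushen most points lie near 0.

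**Figure D2:**
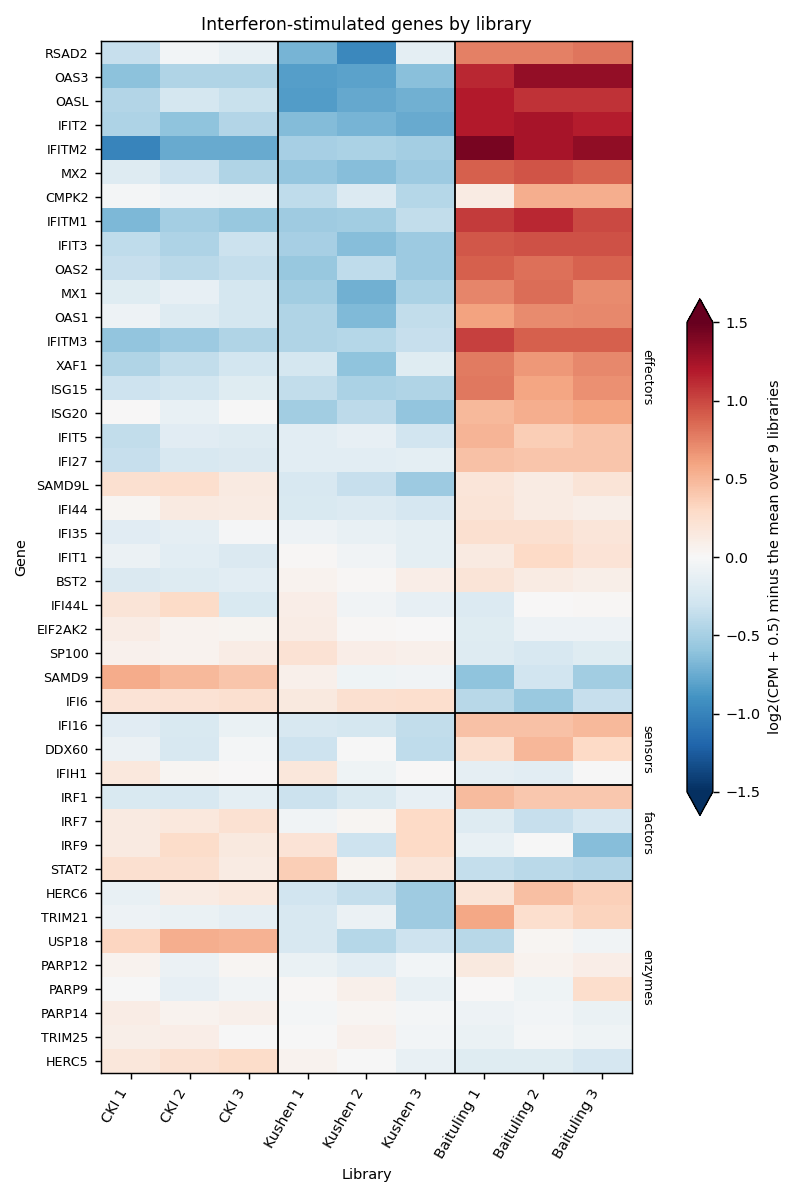
Expression of the 43 genes (rows) in the 9 libraries (columns), as log2(CPM + 0.5) minus the mean of the gene over the libraries; black lines part treatments and roles. The Baituling columns are highest for the effectors from RSAD2 down to IFI27, and lowest for SAMD9, IFI6, SP100 and STAT2.

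The OAS enzymes, which make short oligoadenylates when they meet double-stranded RNA, were among the genes with the largest differences. OAS3 (ENSG00000111331) was at 9.96, 11.2 and 11.2 CPM in the CKI libraries, 8.49, 8.70 and 9.89 CPM in the Kushen libraries and 34.6, 39.3 and 39.3 CPM in the Baituling libraries. Every Baituling library was above every other, and OAS3 was 3.49-fold lower in CKI (log2 fold change -1.80 ± 0.08, adjusted p = 1.1e-13) and 4.18-fold lower in Kushen (-2.06 ± 0.08, adjusted p = 3.5e-14). OAS2, the next gene on chromosome 12, was at 15.3, 14.5 and 15.1 CPM in the CKI libraries, 13.0, 14.9 and 13.2 CPM in the Kushen libraries and 36.7, 34.8 and 36.3 CPM in the Baituling libraries. Its log2 fold changes were -1.26 ± 0.07 in CKI and -1.39 ± 0.07 in Kushen, and CKI and Kushen libraries overlapped. OAS1 was at 2.71, 2.46 and 2.33 CPM in the CKI libraries, 1.97, 1.64 and 2.13 CPM in the Kushen libraries and 4.63, 5.04 and 5.08 CPM in the Baituling libraries. Its log2 fold changes were -0.97 ± 0.15 in CKI and -1.36 ± 0.16 in Kushen, of which the second was called, and no CKI or Kushen library reached the Baituling level. OASL, a relative without the synthetase activity that promotes signalling by the RNA sensor RIG-I, lies apart on the same chromosome and was at 5.45, 6.25 and 5.92 CPM in the CKI libraries, 4.02, 4.27 and 4.44 CPM in the Kushen libraries and 18.0, 16.7 and 16.7 CPM in the Baituling libraries. The groups did not overlap and stood in the order Baituling, CKI, Kushen, with log2 fold changes of -1.55 ± 0.09 and -2.02 ± 0.10 against Baituling and 0.47 ± 0.11 between CKI and Kushen (adjusted p = 0.0021).

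The IFIT proteins bind foreign RNA and block its translation. Their 4 genes lie side by side on chromosome 10 (GRCh37, from 91043451 to 91181362), yet the size of their differences between treatments varied. IFIT2 (ENSG00000119922) was at 23.2, 21.0 and 23.4 CPM in the CKI libraries, 20.2, 19.5 and 18.8 CPM in the Kushen libraries and 73.8, 76.3 and 73.2 CPM in the Baituling libraries. It was 3.30-fold lower after CKI than after Baituling (-1.72 ± 0.06, adjusted p = 1.3e-15) and 3.82-fold lower in Kushen (-1.93 ± 0.06), with no overlap between any groups. IFIT3, which encodes a partner of IFIT2, was at 47.8, 45.3 and 49.8 CPM in the CKI libraries, 44.3, 39.8 and 42.8 CPM in the Kushen libraries and 120.0, 121 and 122 CPM in the Baituling libraries. It had log2 fold changes of -1.35 ± 0.05 and -1.52 ± 0.05 and was called in both comparisons. IFIT5 and IFIT1 were not called in either. IFIT5 was at 30.3 to 34.8 CPM in CKI, 32.1 to 36.0 CPM in Kushen and 50.6 to 55.8 CPM in Baituling, a log2 fold change of -0.68 ± 0.06 for CKI. IFIT1 was at 23.9 to 26.2, 25.1 to 28.1 and 30.4 to 34.2 CPM in the same order of treatments, and its log2 fold changes of -0.37 ± 0.07 and -0.27 ± 0.07 did not pass by library totals (-0.08 and -0.06). The spans of IFIT1, IFIT2 and IFIT3 overlap that of LIPA on the other strand, so their unstranded counts may include reads of LIPA.

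Ratios within a library do not depend on the scaling, and 4 pairs of family members were set side by side after their values had been seen, so they are given without a test. The log2 ratio of IFIT2 to IFIT1 counts was -0.17, -0.24 and -0.03 in the CKI libraries, -0.48, -0.46 and -0.41 in the Kushen libraries and 1.28, 1.16 and 1.19 in the Baituling libraries. The count of IFIT2 was thus above that of IFIT1 only in Baituling, and all 3 groups were apart. IFIT3 over IFIT5 was 0.38 to 0.66 after CKI, 0.15 to 0.41 after Kushen and 1.10 to 1.26 after Baituling.

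**Figure D3:**
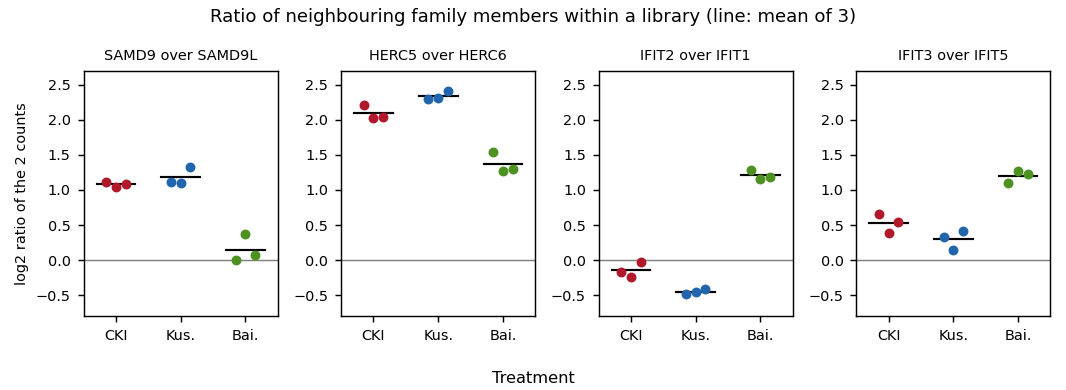
Log2 ratio of the counts of 2 neighbouring family members (panels) in each library (points) by treatment, with the mean of 3 as a line; counts are not corrected for gene length. IFIT2 over IFIT1 and IFIT3 over IFIT5 are highest in Baituling, and SAMD9 over SAMD9L and HERC5 over HERC6 lowest.

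The IFITM proteins sit in cell membranes and hinder the entry of enveloped viruses. Their genes are close relatives, side by side on chromosome 11 (GRCh37, from 303655 to 329475), and how reads that fit several of them were counted is not stated in the sources used here, so the split among them is uncertain. IFITM3 (ENSG00000142089), with BST2 the gene with the highest expression per kb of transcript in the set, was at 143, 149 and 159 CPM in the CKI libraries, 159, 162 and 170.1 CPM in the Kushen libraries and 441, 404 and 405 CPM in the Baituling libraries. No CKI or Kushen library reached the level of a Baituling library, and the log2 fold changes were -1.47 ± 0.05 for CKI (adjusted p = 1.4e-15) and -1.35 ± 0.05 for Kushen. IFITM1 was at 12.9, 14.5 and 14.0 CPM in the CKI libraries, 14.3, 14.4 and 16.1 CPM in the Kushen libraries and 43.8, 46.3 and 42.0 CPM in the Baituling libraries, with log2 fold changes of -1.67 ± 0.07 and -1.56 ± 0.07 and an overlap of CKI and Kushen. IFITM2 was at 22.4, 26.4 and 26.4 CPM in the CKI libraries, 31.7, 32.4 and 31.5 CPM in the Kushen libraries and 122, 107 and 114 CPM in the Baituling libraries. Its decrease in CKI, 4.55-fold (-2.19 ± 0.06, adjusted p = 2.4e-16), was the largest of the 43 genes in that comparison, and unlike most effectors it was lower in CKI than in Kushen (-0.35 ± 0.07, adjusted p = 0.00054).

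Among the other antiviral effectors, MX1 and MX2 encode dynamin-like GTPases that trap viral nucleocapsids. MX1 was at 13.4, 14.0 and 12.6 CPM in the CKI libraries, 10.4, 9.07 and 10.8 CPM in the Kushen libraries and 25.6, 27.6 and 25.3 CPM in the Baituling libraries, without overlap between any groups. Its log2 fold change was -1.38 ± 0.08 in Kushen against Baituling, which was called, and -0.97 ± 0.08 in CKI, just short of the fold threshold, and CKI was above Kushen (0.40 ± 0.09, adjusted p = 0.00099). MX2 was low, at 2.79, 2.54 and 2.25 CPM in the CKI libraries, 2.01, 1.93 and 2.08 CPM in the Kushen libraries and 6.49, 6.74 and 6.46 CPM in the Baituling libraries, and was called in both comparisons with Baituling (-1.38 ± 0.14 and -1.71 ± 0.14).

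ISG15 encodes a ubiquitin-like protein that is both secreted and attached to other proteins, and ISG20 an exonuclease. ISG15 (ENSG00000187608) was at 48.2, 49.3 and 52.6 CPM in the CKI libraries, 46.2, 42.9 and 43.8 CPM in the Kushen libraries and 104, 90.3 and 96.3 CPM in the Baituling libraries, again in the order Baituling, CKI, Kushen. Log2 fold changes against Baituling were -0.95 ± 0.06 for CKI and -1.13 ± 0.06 for Kushen. ISG20 was at 9.73, 8.99 and 9.64 CPM in the CKI libraries, 6.64, 7.26 and 6.25 CPM in the Kushen libraries and 13.8, 14.4 and 14.96 CPM in the Baituling libraries, and the difference between CKI and Kushen (0.49 ± 0.09, adjusted p = 0.00039) was close in size to that between CKI and Baituling (-0.61 ± 0.09). XAF1, an antagonist of the apoptosis inhibitor XIAP, was at 4.71, 5.00 and 5.41 CPM in the CKI libraries, 5.43, 4.18 and 5.77 CPM in the Kushen libraries and 11.7, 10.7 and 11.3 CPM in the Baituling libraries, called lower in both comparisons with Baituling (-1.16 ± 0.12 and -1.13 ± 0.12) and not told apart between CKI and Kushen.

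RSAD2, which encodes the radical enzyme viperin, and the nucleotide kinase gene CMPK2 overlap head to head on chromosome 2 and were near the limit of detection. RSAD2 had 10, 15 and 14 counts in the CKI libraries, 5, 2 and 12 in the Kushen libraries and 29, 26 and 27 in the Baituling libraries. Baituling was above both, with log2 fold changes of -1.47 ± 0.35 and -2.42 ± 0.40, the second the lowest of the set but with a wide error. Without Kushen replicate 3, the library with 12 counts, RSAD2 was also called higher in CKI than in Kushen (1.81). CMPK2 had 10, 9 and 9, then 5, 7 and 4, then 10, 15 and 15 counts, and its difference in CKI (-0.92 ± 0.37, adjusted p = 0.031) did not pass with DESeq2 or by library totals.

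**Figure D4:**
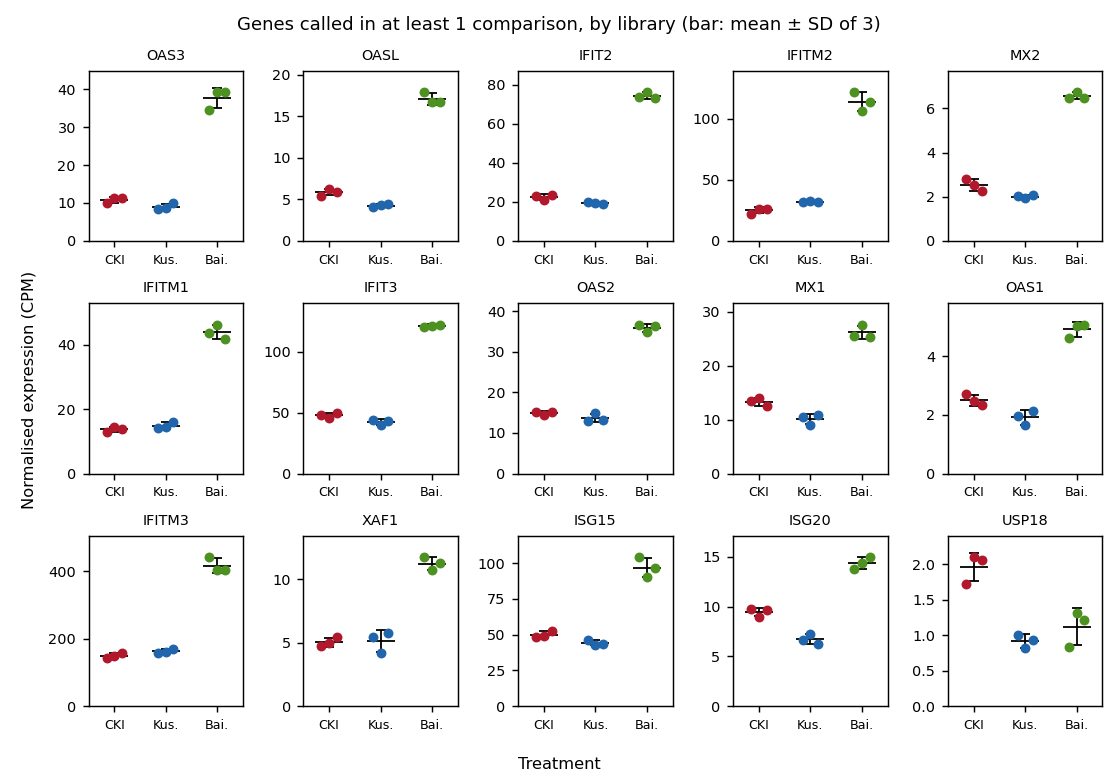
CPM (vertical axes, from 0) of the 15 genes called in at least 1 comparison and with a mean log2 CPM not below 0, in each library (points) with mean ± SD of 3 (bars), for CKI, Kushen (Kus.) and Baituling (Bai.). In 14 panels the 3 Baituling libraries lie above all others; in USP18 the CKI libraries do.

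The effectors did not all differ in this direction. IFI6, a small membrane protein that limits apoptosis and viral replication, was at 50.2 to 51.3 CPM in CKI, 48.0 to 51.9 CPM in Kushen and 29.4 to 34.1 CPM in Baituling, so it was higher after CKI (0.66 ± 0.06, adjusted p = 3.9e-09) and Kushen (0.65 ± 0.06). SAMD9, which restrains translation, was at 38.3, 36.7 and 34.9 CPM in the CKI libraries, 27.3, 24.9 and 25.1 CPM in the Kushen libraries and 16.9, 21.2 and 18.0 CPM in the Baituling libraries, in the reverse order of OAS3 and OASL and with no overlap. Its log2 fold changes were 0.98 ± 0.08 and 0.47 ± 0.08 against Baituling and 0.51 ± 0.07 between CKI and Kushen (adjusted p = 1.6e-05). Its neighbour and paralog SAMD9L was at 16.5 to 17.8 CPM in CKI, 10.02 to 12.6 CPM in Kushen and 16.3 to 17.2 CPM in Baituling, lowest in Kushen with CKI and Baituling overlapping (0.04 ± 0.08, adjusted p = 0.64, but 0.33 and past the threshold by library totals). The log2 ratio of SAMD9 to SAMD9L counts was 1.04 to 1.12 after CKI, 1.09 to 1.32 after Kushen and -0.0042 to 0.38 after Baituling. EIF2AK2, the kinase PKR that halts translation on double-stranded RNA, and SP100, a nuclear body protein, were higher by small amounts, 0.18 ± 0.05 and 0.28 ± 0.05 in CKI and 0.16 ± 0.05 and 0.34 ± 0.05 in Kushen.

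The remaining effectors were called in no comparison. IFI27, a mitochondrial protein gene, was at 62.9 to 69.1 CPM in CKI, 72.1 to 72.5 CPM in Kushen and 107 to 109 CPM in Baituling (-0.70 ± 0.05 and -0.58 ± 0.05 against Baituling). BST2, tetherin, which holds budding virus at the cell surface, was at 295 to 306, 346 to 368 and 364 to 392 CPM. It was lower in CKI than in Kushen (-0.25 ± 0.04, adjusted p = 0.00012) and than in Baituling (-0.32 ± 0.04), but the latter did not pass by library totals (-0.04). Its difference between Kushen and Baituling (-0.08 ± 0.04, adjusted p = 0.095) turned sign by library totals and then passed (0.13). IFI35 had log2 fold changes of -0.33 ± 0.06 and -0.34 ± 0.06 and passed in neither by library totals. IFI44 was lowest in Kushen (12.2 to 12.6 CPM, against 14.9 to 16.1 CPM in CKI and 15.5 to 16.7 CPM in Baituling), and CKI and Baituling were not told apart (-0.04 ± 0.07), with a sign that turned by library totals and then passed (0.25), by which Kushen and Baituling no longer differed past the threshold (-0.17). IFI44L stayed at 1.17 CPM or less and passed in no comparison.

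Levels were compared between genes per kb of the canonical transcript. BST2 and IFITM3 led with 299.9 and 246 CPM per kb in CKI, 356 and 268 in Kushen and 376 and 682 in Baituling. IFITM3 was thus the second in CKI and Kushen and the first in Baituling. ISG15, IFI27 and IFI6 followed in CKI and Kushen, at 62.0 to 101 CPM per kb, and RSAD2, CMPK2 and IFI44L were among the lowest 4 in every treatment.

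Of the 3 sensors, IFI16, which detects DNA, was at 81.6, 78.6 and 85.7 CPM in the CKI libraries, 78.1, 77.0 and 71.2 CPM in the Kushen libraries and 125, 126 and 129.5 CPM in the Baituling libraries, lower after both CKI (-0.63 ± 0.05, adjusted p = 3.9e-10) and Kushen (-0.75 ± 0.05) with no overlap with Baituling. DDX60, a helicase that assists RNA sensing, was lower too (-0.48 ± 0.10 and -0.59 ± 0.11), though for CKI it did not pass by library totals (-0.19). IFIH1, the RNA sensor MDA5, was at 11.7 to 13.1 CPM in CKI, 11.2 to 13.2 CPM in Kushen and 10.4 to 11.6 CPM in Baituling and passed in no comparison, though by library totals it was higher in CKI (0.46) and Kushen (0.36) than in Baituling. In edgeR the difference for CKI also passed by upper quartile scaling (0.24, adjusted p = 0.027) and with at least 10 counts in every library (0.21, adjusted p = 0.045).

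The 4 transcription factors were divided. STAT2 (ENSG00000170581) was at 83.0, 82.9 and 76.5 CPM in the CKI libraries, 90.8, 72.1 and 79.4 CPM in the Kushen libraries and 54.6, 52.9 and 51.6 CPM in the Baituling libraries. It was higher than in Baituling after CKI (0.61 ± 0.07, adjusted p = 1e-07) and Kushen (0.61 ± 0.07, adjusted p = 1.3e-07), with no overlap. IRF7, the factor that amplifies interferon production, was at 40.8, 41.6 and 43.5 CPM in the CKI libraries, 35.8, 37.8 and 45.8 CPM in the Kushen libraries and 32.3, 29.2 and 31.0 CPM in the Baituling libraries, and was higher as well (0.44 ± 0.08 and 0.37 ± 0.08). IRF1, which acts on many of these promoters directly, was at 58.8, 58.6 and 62.6 CPM in the CKI libraries, 55.2, 59.1 and 63.7 CPM in the Kushen libraries and 96.7, 91.7 and 91.5 CPM in the Baituling libraries. It was the only factor of the 4 that was lower after CKI (-0.64 ± 0.05, adjusted p = 1.8e-09) and Kushen (-0.65 ± 0.05). IRF9, the DNA-binding partner of STAT2, was near 1 CPM, at 1.02, 1.17 and 1.03 CPM in the CKI libraries, 1.09, 0.615 and 1.198 CPM in the Kushen libraries and 0.781, 0.877 and 0.386 CPM in the Baituling libraries, and its groups overlapped in CKI against Kushen and in Kushen against Baituling. Its log2 fold changes of 0.64 ± 0.33 and 0.49 ± 0.34 did not pass. By library totals the first passed (0.93). IRF9 overlaps ENSG00000259529 on the same strand. How reads that fit both were counted is not stated in the sources used here, so the level of IRF9 is uncertain. No difference between CKI and Kushen passed for the 4 (adjusted p of 0.41 or more), but without Kushen replicate 3 IRF7 was higher in CKI (0.18, adjusted p = 0.032 in edgeR), against 0.08 with it.

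Upstream of these factors, none of 9 interferon genes in the table was tested, 6 had no count in any library and the highest single count was 2. IFNB1, the beta interferon gene, had 0 counts in all 9 libraries, where 3 counts would be 0.118 to 0.166 CPM, so its messenger RNA was not detectable at this depth. The receptor genes were expressed. IFNAR1 was at 80.4 to 83.7 CPM in CKI, 74.4 to 78.5 CPM in Kushen and 57.8 to 62.2 CPM in Baituling (0.47 ± 0.05 and 0.36 ± 0.05), and IFNAR2 differed in the same direction (0.38 ± 0.10 and 0.44 ± 0.10). IFNLR1, for lambda interferons, was at 8.67, 8.58 and 10.1 CPM in the CKI libraries, 4.63, 4.96 and 5.50 CPM in the Kushen libraries and 4.54, 4.11 and 3.59 CPM in the Baituling libraries and was called higher in CKI than in Baituling (1.15 ± 0.13, adjusted p = 7.5e-08). The kinase gene JAK1 was higher after CKI (0.37 ± 0.04) and Kushen (0.35 ± 0.04), and TYK2 lower (-0.30 ± 0.05 and -0.31 ± 0.05), but TYK2 did not pass by library totals.

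SOCS1, the inhibitor that binds JAK kinases and is induced by the same pathway, was at 3.49, 3.83 and 3.20 CPM in the CKI libraries, 2.17, 2.79 and 2.44 CPM in the Kushen libraries and 19.6, 17.1 and 16.5 CPM in the Baituling libraries. It was 5.05-fold lower after CKI than after Baituling (-2.34 ± 0.11, adjusted p = 4.8e-13) and 7.18-fold lower in Kushen (-2.84 ± 0.12). The span of SOCS1 overlaps that of RMI2 on the other strand, so its unstranded counts may include reads of RMI2. Of 10 JAK-STAT genes and inhibitors, 3 were higher and 6 lower in each comparison with Baituling, and SOCS1 alone was called, where over all genes 39.1% were higher and 37.0% lower for CKI and 35.6% and 36.1% for Kushen.

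**Figure D5:**
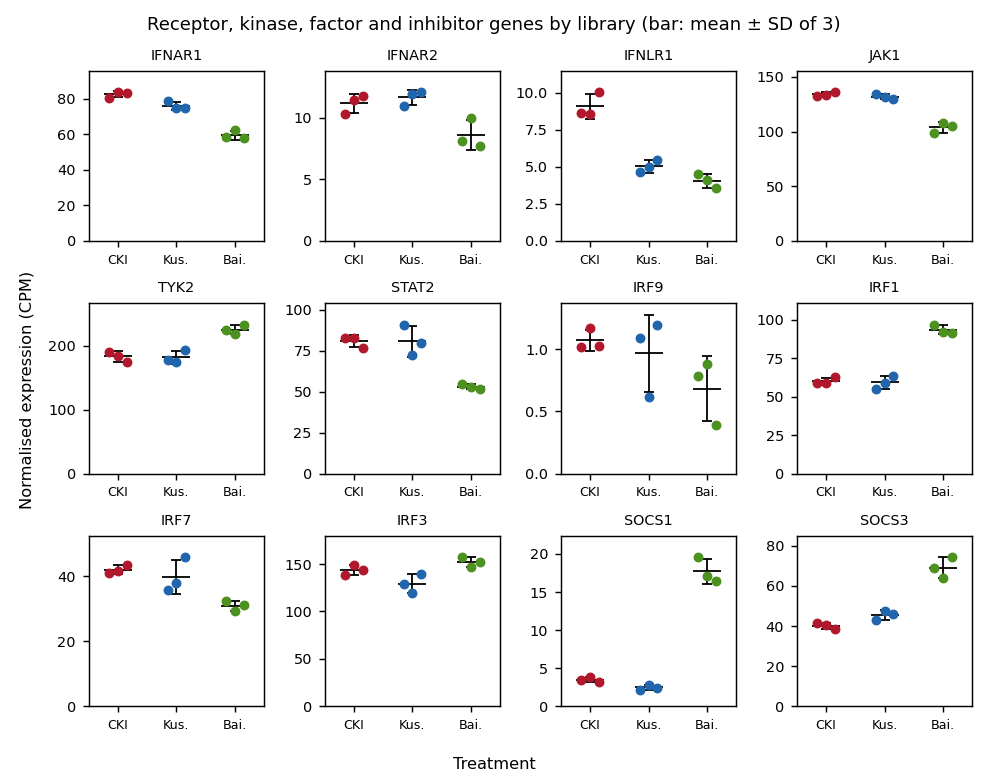
CPM (vertical axes, from 0) of 12 receptor, kinase, factor and inhibitor genes in each library (points) with mean ± SD of 3 (bars), for CKI, Kushen (Kus.) and Baituling (Bai.). IFNAR1, IFNLR1, JAK1, STAT2 and IRF7 are lowest in Baituling, and TYK2, IRF1, SOCS1 and SOCS3 highest.

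The enzymes of ubiquitin, ISG15 and ADP-ribose transfer were divided. USP18, which removes ISG15 from proteins and blocks signalling at the receptor IFNAR2, was low, at 1.73, 2.095 and 2.05 CPM in the CKI libraries, 1.01, 0.821 and 0.931 CPM in the Kushen libraries and 0.829, 1.32 and 1.21 CPM in the Baituling libraries. The CKI libraries were above all others, 2.12-fold above Kushen (1.09 ± 0.23, adjusted p = 0.001) and 1.76-fold above Baituling (0.81 ± 0.23, adjusted p = 0.0041), while Kushen and Baituling overlapped (-0.27 ± 0.27). With the test set against a log2 fold change of 1, it was not called. HERC5, the main ligase that attaches ISG15, was at 32.4 to 35.1 CPM in CKI, 26.7 to 29.9 CPM in Kushen and 24.2 to 25.3 CPM in Baituling, in the order of SAMD9. CKI was above Kushen (0.24 ± 0.06) and Baituling (0.44 ± 0.06). Its neighbour on chromosome 4, HERC6, was at 6.98 to 8.53, 5.06 to 6.12 and 8.73 to 10.5 CPM, lowest in Kushen (-0.77 ± 0.12 against Baituling, adjusted p = 8.2e-06), and its small difference between CKI and Baituling (-0.29 ± 0.11) did not pass by library totals. The log2 ratio of HERC5 to HERC6 counts was 2.03 to 2.21 after CKI, 2.29 to 2.40 after Kushen and 1.27 to 1.54 after Baituling.

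TRIM21, an antibody receptor and ubiquitin ligase, was lower after CKI (-0.51 ± 0.10) and Kushen (-0.69 ± 0.11), for CKI not by library totals (-0.22). TRIM25, which activates RIG-I, was at 146 CPM or more in all libraries and differed by 0.13 ± 0.04 at most. Of the ADP-ribose transferase family, PARP14 was higher in CKI than in Baituling (0.16 ± 0.05), PARP12 was lower in Kushen than in Baituling (-0.20 ± 0.06), with a sign that turned by library totals (0.01), and PARP9 passed in no comparison. By library totals PARP12 was higher in CKI than in Baituling (0.18), and TRIM25 (0.28) and PARP14 (0.28) were higher in Kushen than in Baituling. By upper quartile scaling TRIM25 (0.14) and PARP14 (0.13) passed in Kushen against Baituling as well.

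The 13 genes higher in CKI than in Kushen were IFIT2, IFIT3, ISG15, ISG20, MX1, OAS3, OASL, IFI44, SAMD9, SAMD9L, USP18, HERC5 and HERC6, with log2 fold changes from 0.17 to 1.09. For 8 of them, IFIT2, IFIT3, ISG15, ISG20, MX1, OAS3, OASL and HERC6, CKI lay between Kushen and Baituling, while for USP18, SAMD9 and HERC5 it was above both. SAMD9L (0.60 ± 0.08, adjusted p = 1.6e-05), SAMD9 and ISG20 differed most after USP18. The values for IFIT2 (0.21 ± 0.06), IFIT3 (0.17 ± 0.05), ISG15 (0.18 ± 0.06) and OAS3 (0.26 ± 0.09) were small and no longer passed without 1 or another library, and OAS3 did not pass with DESeq2 (0.24, adjusted p = 0.063). The 3 lower genes were BST2, IFITM2 and IFI27, of which IFI27 (-0.12 ± 0.05) was at the threshold and did not pass by library totals. All 3 were lower in CKI than in Baituling as well. For 15 genes, among them OAS2, IFITM1, IFITM3, XAF1 and IRF1, Baituling was highest and CKI and Kushen were not told apart. IFITM3 (-0.12 ± 0.05, adjusted p = 0.051) was just short of the threshold without overlap of its libraries, and passed with DESeq2 (adjusted p = 0.031), by upper quartile scaling (0.041), with no filter on low counts (0.027) and with only the 2 groups compared (0.049). By library totals OAS1, OAS2, IFI16, PARP12, PARP14 and TRIM25 also passed as higher in CKI than in Kushen (0.13 to 0.46 on the log2 scale). A p that missed the threshold does not show that the treatments were alike: the SE of these differences was 0.05 for IFITM3 and 0.47 for RSAD2, whose log2 fold change was 0.94.

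A wider list of 85 other genes of the interferon pathway, of which 74 were tested, was set beside the 43. Of the 74, 13 were called lower and 3 higher in CKI than in Baituling and 12 lower and 2 higher in Kushen than in Baituling, beside 7.91% and 11.2% of all genes for CKI and 6.73% and 8.50% for Kushen. There were 0 between CKI and Kushen in edgeR or DESeq2, where edgeR gave 21 higher and 10 lower at an adjusted p under 0.05 (19.6% and 20.2% of all genes) and 25 and 13 at an unadjusted one. APOBEC3B, a cytidine deaminase, was at 4.86, 4.31 and 5.65 CPM in the CKI libraries, 4.14, 4.39 and 4.13 CPM in the Kushen libraries and 32.8, 34.8 and 30.2 CPM in the Baituling libraries and was 6.59-fold lower in CKI (-2.72 ± 0.09, adjusted p = 2.9e-15). Called lower in both comparisons were also its relative APOBEC3G (-1.57 in CKI and -1.59 in Kushen), the death ligand TNFSF10 (-1.75 and -1.30), NMI (-1.27 and -1.25), PHF11 (-1.56 and -1.44), GBP4 (-1.02 and -1.16), TYMP (-1.61 and -1.02) and the low genes RTP4 and CXCL11. TMEM173, which encodes the DNA-signalling adaptor STING, was at 21.4, 23.6 and 22.6 CPM in the CKI libraries, 17.8, 17.0 and 19.96 CPM in the Kushen libraries and 57.6, 55.5 and 55.4 CPM in the Baituling libraries and was called lower in both (-1.32 ± 0.06 and -1.62 ± 0.06). MB21D1, the sensor cGAS upstream of it, was lower too, with log2 fold changes of -0.82 ± 0.06 in CKI and -1.36 ± 0.06 in Kushen, the second called, and was higher in CKI than in Kushen (0.54 ± 0.06, adjusted p = 2.1e-06). DHX58 and TRIM14 were called lower in CKI (-1.15 and -1.18) and were lower without a call in Kushen (-0.90 and -0.83).

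The RNA sensor gene DDX58, which encodes RIG-I, was instead higher in CKI (0.42 ± 0.06) and Kushen (0.18 ± 0.06), and the factor gene IRF3 was lower in Kushen than in Baituling (-0.24 ± 0.05, adjusted p = 0.00053) and than in CKI (0.16 ± 0.05 for CKI against Kushen, adjusted p = 0.024). Its difference between CKI and Baituling did not pass (-0.08 ± 0.05, adjusted p = 0.17). By library totals the first no longer passed (-0.02) and the last turned sign and passed (0.21). The CKI and Kushen libraries overlapped for IRF3. Their difference no longer passed without CKI replicate 2, CKI replicate 3 or Kushen replicate 2 (0.10 to 0.15). LAMP3, a lysosomal protein gene, was at 5.33, 4.67 and 5.06 CPM in the CKI libraries, 3.14, 2.91 and 3.99 CPM in the Kushen libraries and 0.341, 0.329 and 0.552 CPM in the Baituling libraries and was called higher in both comparisons with Baituling (3.62 ± 0.24 and 3.03 ± 0.26). The restriction factor gene TRIM5 was called higher as well (1.05 ± 0.07 and 1.25 ± 0.06), as was IFNLR1 in CKI.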

How the data were processed

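RNA sequencing of MDA-MB-231 cells gave 9 libraries, 3 each for CKI, Kushen and Baituling, grouped by their labels. The authors trimmed reads with Trim Galore 0.3.7, aligned them to hg19 with STAR 2.5.3a and deposited raw whole-number counts per gene without normalization. The counting program and its handling of reads that fit several genes are not given in the sources used here. Libraries were unstranded, and the whole spans of 23 of the 43 genes, introns included, overlap a gene annotated on the opposite strand. Their counts may include its reads where exons overlap. The same holds for some of the named pathway genes, among them SOCS1 (RMI2), APOBEC3B (APOBEC3B-AS1), MB21D1 (DDX43), TRIM5 (TRIM22) and IRF3 (BCL2L12). Some genes, among them IRF9, IFITM1, IFITM2 and IFNAR2, also overlap a gene annotated on the same strand. Reads that fit both may have been left out or shared. Columns were assigned to libraries by treatment initial and replicate number. The table has 24566 rows, of which 222 repeat an Ensembl identifier with the same counts and were dropped, leaving 24344 genes.

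Genes were kept by filterByExpr (minimum count 10, minimum total 15), which left 14195, and library sizes were scaled by TMM. The quasi-likelihood test of edgeR 4.0.16 in R 4.3.3 was fitted to all 9 libraries with group as the only term, two-sided, adjusted by Benjamini-Hochberg over all genes tested. Calls used the threshold of the study, an adjusted p under 0.05 and an absolute log2 fold change over 1. Totals of 20144628 to 23782071 counts make counting error small except for genes near the filter. Exact permutation of 3 against 3 libraries gives no p below 0.1 and was not used.

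Members, pathway lists and the rule for naming genes were chosen with earlier results of these data known. CPM in every library is given for members called in at least 1 comparison whose mean log2 CPM was 0 or more, and for STAT2, IRF1, IRF7 and IRF9. Named from the pathway list were IFNAR1, IFNAR2, JAK1, TYK2, IRF3, DDX58 and IFNB1 and the called genes. RSAD2, CMPK2, IFI16, SAMD9 and the 4 ratios were added after their values were seen. Of 87 listed pathway genes 85 were in the table, and some genes of the pathway and marker lists are not reported here. Alternatives were DESeq2 1.42.0, library totals, upper quartile scaling, a weaker and a stricter filter, only the groups compared, a replicate block, a test against a log2 fold change of 1, and leaving out each library.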

Additional observations from a re-analysis of the deposited data

How the results depend on the processing

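The numbers of the 43 genes called, or past an adjusted p of 0.05, stayed within 1.5 times their value under every alternative run, except in CKI against Kushen. There 1 gene was called, 0 with the test against a log2 fold change of 1, and 1 to 2 on leaving out each library. The second was RSAD2, called without Kushen replicate 3 (log2 fold change 1.81, 12 counts in that library). The split by direction moved more. By library totals, CKI against Baituling went from 26 lower and 10 higher to 19 and 15, and from 0 to 2 called higher. In that comparison 1 gene was called higher by upper quartile scaling and with at least 10 counts in every library. The same number was called higher without CKI replicate 3 and without Baituling replicate 2. Of the values of the 43 genes that turned sign, that of PARP12 in Kushen against Baituling (-0.20 as reported) had passed the adjusted p and the others had not. By library totals IFI44 and PARP12 in CKI against Baituling and BST2 in Kushen against Baituling passed with the turned sign. The cause was not tested. In CKI against Kushen, STAT2 was 0.074 by library totals, 0.0093 with at least 10 counts in every library, 0.0033 with only the 2 groups compared and 0.0031 with a replicate block. Leaving out each library in turn gave -0.078 to 0.092 for STAT2, -0.033 to 0.059 for IRF1 and -0.091 to 0.32 for IRF9. In CKI against Baituling, IFI44 was 0.25 by library totals, 0.030 by upper quartile scaling and 0.0027 with at least 10 counts in every library. By library totals in Kushen against Baituling, BST2 was 0.13 and PARP12 0.012, and in CKI against Baituling PARP12 was 0.18 and IRF3, outside the 43, 0.21. Library totals also brought past the adjusted p IFIH1, IRF9 and SAMD9L in CKI against Baituling, IFIH1, PARP14 and TRIM25 in Kushen against Baituling, and OAS1, OAS2, IFI16, PARP12, PARP14 and TRIM25 in CKI against Kushen, all as higher in the first treatment. They ended the adjusted p of 7 genes in CKI against Baituling (BST2, CMPK2, DDX60, HERC6, IFI35, IFIT1 and TRIM21), of IFI27 in CKI against Kushen, and of IFI35, IFI44 and IFIT1 in Kushen against Baituling, where PARP12 lost it with its sign. Upper quartile scaling also brought past it IFIH1 in CKI against Baituling and PARP14 and TRIM25 in Kushen against Baituling. With at least 10 counts in every library, IFIH1 in CKI against Baituling, TRIM25 in Kushen against Baituling (0.10) and IFI16 in CKI against Kushen (0.13) passed.

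Among the 43 genes, passes at an adjusted p of 0.05 that ended on leaving out 1 library were those of IFIT2 (without CKI replicate 1, CKI replicate 3 or Kushen replicate 3, 0.17 to 0.19), IFIT3 (CKI 3 or Kushen 2, 0.13 to 0.14), ISG15 (CKI 3, Kushen 2 or Kushen 3, 0.14 to 0.16), OAS3 (CKI 2, CKI 3, Kushen 1 or Kushen 2, 0.22 to 0.23) and IFI27 (any library but CKI 3 and Baituling 1, -0.13 to -0.08) in CKI against Kushen. For CKI against Baituling they were CMPK2 (any CKI library, Baituling 2 or Baituling 3, -0.96 to -0.80), HERC6 (CKI 1, Baituling 2 or Baituling 3, -0.28 to -0.20) and TRIM25 (CKI 1 or CKI 2, 0.11 to 0.12), and in Kushen against Baituling HERC5 (Kushen 1 or Baituling 3, 0.15 to 0.17). Without Kushen replicate 3, IRF7 in CKI against Kushen passed (0.18). DDX58 in Kushen against Baituling no longer passed without Kushen replicate 2 (0.14). IRF3 in CKI against Kushen no longer passed without CKI replicate 2, CKI replicate 3 or Kushen replicate 2 (0.10 to 0.15). Replicate numbers did not pair the libraries, with correlations of -0.07 to 0.12 between the deviations of libraries sharing a number. With the replicate block, 1 gene was called and 15 passed the adjusted p in CKI against Kushen, 11 and 36 in CKI against Baituling, and 16 and 35 in Kushen against Baituling. Genes near the filter on low counts, RSAD2, CMPK2, IFI44L and IRF9, are limited by depth, and IRF9 also by its overlap with a gene on the same strand.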
